A study of Mus musculus with 21 samples.

Results

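Long noncoding RNAs (lncRNAs) were followed in cultured mouse natural killer (NK) cells from mice with a deletion of Ikzf1 (Ikaros), of Ikzf3 (Aiolos) or of the pair, and from Cre only controls. They were taken as the rows of the deposited expression table annotated as lincRNA (135), antisense (110), processed_transcript (71), TEC (39), bidirectional_promoter_lncRNA (21), sense_intronic (9) or sense_overlapping (2) that reached 1 RPKM in at least 3 of 15 libraries. RPKM is the number of reads scaled to transcript length and library size. Of 744 rows with such an annotation, 387 met the rule and 357 did not, out of 11736 rows in all. The row just inside was Mypopos, with a third-highest RPKM of 1.0005, and the row just outside was 1110019D14Rik, with 0.9997. The DKO group (Ikzf1 and Ikzf3 both deleted) had 3 libraries (S5 to S7), the Ikzf1 KO group 4 (S12 to S15), the Ikzf3 KO group 4 (S1 to S4) and the Cre only group 4 (S16 to S19). NK cells of every group were sorted from spleen and then cultured in interleukin 15 at 50 ng/ml. The Cre driver, the deleted exons and the age of the mice are not given in the sources used here. Libraries of 6 samples sorted without culture are not analysed here.

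lncRNAs are transcripts without a recognised long reading frame. Some act in the nucleus on chromatin or splicing, some are hosts from which small nucleolar RNAs or microRNAs are cut, and for many no function is known. Ikaros and Aiolos are zinc finger transcription factors of lymphocytes that bind related DNA sequences, associate with each other and recruit chromatin remodelling complexes. Most lncRNAs below carry only a database name (Gm numbers and Rik names), and for these no function is given.

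The libraries held 8.613 to 21.25 megareads in the 11291 genes whose whole reads could be recovered from the steps between RPKM values. The lncRNAs took 0.400% to 0.564% of these reads. Ikzf1 averaged 30.3 ± 7.12 RPKM in DKO cells, 19.1 ± 0.662 in Ikzf1 KO cells, 81.4 ± 6.34 in Ikzf3 KO cells and 61.9 ± 5.22 in Cre only cells (SD, n = 3, 4, 4 and 4). Ikzf3 averaged 21.5 ± 1.96 RPKM in DKO cells, 48.3 ± 1.52 in Ikzf1 KO cells, 17.8 ± 2.37 in Ikzf3 KO cells and 41.8 ± 3.68 in Cre only cells. Each targeted gene was thus lower where the labels say it was deleted. The summed RPKM of the 7 listed NK markers found in the table (of 8) was 2715 to 7943 in DKO, 22849 to 26178 in Ikzf1 KO, 6088 to 18613 in Ikzf3 KO and 18297 to 23498 in Cre only libraries. That of 5 T cell markers (of 6) was 120.2 to 273 in DKO, 15.6 to 54.1 in Ikzf1 KO, 18.4 to 45.4 in Ikzf3 KO and 11.2 to 76.4 in Cre only libraries. The B cell marker Cd79b was at 0.516 to 2.23 RPKM in DKO, 0.777 to 1.54 in Ikzf1 KO, 0 to 0.0796 in Ikzf3 KO and 0.156 to 0.522 in Cre only libraries. Of 5 myeloid markers listed, 2 (Itgam and Lyz2) were in the table, with a sum of 1.012 to 1.99 RPKM in DKO, 1.90 to 2.06 in Ikzf1 KO, 2.45 to 6.52 in Ikzf3 KO and 3.85 to 7.88 in Cre only libraries. The NK and T cell sums moved with the DKO genotype. A sum follows its most abundant members, and the NK markers did not all move alike. Eomes, among those summed, averaged 71.8 ± 6.93 RPKM in DKO and 53.5 ± 3.84 RPKM in Cre only cells. Values of the other NK markers are not given singly here. The sum of Itgam and Lyz2, not given singly here, was lower in all DKO and Ikzf1 KO libraries than in any Cre only library. The NK sum of Ikzf3 KO libraries reached from far below the Cre only range into it. The part of these shifts in the results was not tested. In bulk samples, fewer cells that carry a transcript and less of it per cell cannot be told apart. Within Ikzf3 KO, S3 and S4 were both over 2 times S1 and S2 for 46 of 387 lncRNAs and under 1/2 of them for 27. The median SD of a lncRNA on the log2 scale was 0.287 in DKO, 0.207 in Ikzf1 KO, 0.474 in Ikzf3 KO and 0.276 in Cre only libraries.

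The start regions of 4 lncRNAs on which the comparisons turn are printed to show what lies there: AA465934, high in every library with the Ikzf3 deletion, and Gm11714, 4833407H14Rik and Mirt1, which were lower in DKO cells. Each is the RefSeq window of 300 bases from 250 before to 50 after the start (GRCm38.p6), 5′ to 3′ on the strand of the gene. They lie at chr11:83291449-83291748 on the plus strand (AA465934), chr11:107428000-107428299 on the plus strand (Gm11714), chr19:53460372-53460671 on the plus strand (4833407H14Rik) and chr19:53464747-53465046 on the minus strand (Mirt1). Capitals mark TGGGAA, an Ikaros-type core, and TGANTCA, the core of AP-1 sites, each on either strand (TTCCCA is the first one on the other strand). The AA465934 and 4833407H14Rik windows held neither, the Gm11714 window held 1 TGANTCA and the Mirt1 window held 1 of each.
AA465934: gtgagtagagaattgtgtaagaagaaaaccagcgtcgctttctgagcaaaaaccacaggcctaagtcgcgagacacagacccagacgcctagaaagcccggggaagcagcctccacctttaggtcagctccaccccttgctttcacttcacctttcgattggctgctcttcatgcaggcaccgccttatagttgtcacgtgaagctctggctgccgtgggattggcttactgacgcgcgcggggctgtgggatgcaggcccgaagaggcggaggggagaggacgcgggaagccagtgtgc
Gm11714: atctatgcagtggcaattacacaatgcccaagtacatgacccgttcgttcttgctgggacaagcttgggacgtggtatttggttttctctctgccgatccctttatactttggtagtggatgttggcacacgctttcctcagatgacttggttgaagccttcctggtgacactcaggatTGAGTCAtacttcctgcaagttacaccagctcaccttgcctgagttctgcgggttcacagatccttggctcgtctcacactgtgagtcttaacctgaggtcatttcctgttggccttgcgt
4833407H14Rik: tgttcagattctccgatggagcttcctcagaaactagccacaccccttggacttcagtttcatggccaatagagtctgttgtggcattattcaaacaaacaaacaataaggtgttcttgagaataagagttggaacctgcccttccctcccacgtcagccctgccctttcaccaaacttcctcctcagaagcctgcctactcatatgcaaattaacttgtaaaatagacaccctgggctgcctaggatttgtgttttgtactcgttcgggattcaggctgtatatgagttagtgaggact
Mirt1: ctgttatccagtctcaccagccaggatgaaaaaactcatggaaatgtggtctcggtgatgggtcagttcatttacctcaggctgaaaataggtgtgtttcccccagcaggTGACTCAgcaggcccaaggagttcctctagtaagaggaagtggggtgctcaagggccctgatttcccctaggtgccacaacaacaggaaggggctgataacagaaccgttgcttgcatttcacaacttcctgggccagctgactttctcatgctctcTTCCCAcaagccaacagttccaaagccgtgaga

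Over all 32851 promoter windows of the same length, 25.6% held TGGGAA and 7.81% held TGANTCA. Of 201 windows of lncRNAs within 1 kb of the annotated start, 19.9% held TGGGAA and 6.47% held TGANTCA. Among windows of lncRNAs that were lower in DKO than in Cre only cells, 4 of 24 (16.7%) held TGGGAA and 2 of 24 (8.33%) held TGANTCA. Among those higher in DKO cells the counts were 3 of 18 (16.7%) and 2 of 18 (11.1%). In Ikzf1 KO cells, windows of the lower lncRNAs held TGGGAA in 2 of 7 (28.6%) and TGANTCA in 1 of 7 (14.3%), and the 2 windows of the higher ones held neither. In Ikzf3 KO cells, windows of the lower lncRNAs held each core in 2 of 14 (14.3%), and those of the higher ones held TGGGAA in 1 of 24 (4.17%) and TGANTCA in 2 of 24 (8.33%). A match is a run of letters only, and these shares are a description.

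lncRNAs were mostly scarce. The median of their mean RPKM was 1.67, against 9.41 for the 9162 protein-coding genes tested. Of the 387, 225 averaged under 2 RPKM, 43 at least 10 and 2 at least 100, while 144 reached 1 RPKM in all 15 libraries and 29 in exactly 3. By position, 164 overlapped a coding gene on the other strand, 31 overlapped one on the same strand, 75 started within 10 kb of a coding gene's start and 115 did none of these, out of 385 found in the GENCODE M21 annotation. Whole reads could be recovered for 380, with a median of 40.6 reads a library, and 34 averaged under 10 reads. AW112010, an RNA induced by interferon and lipopolysaccharide and reported to encode a protein in mouse macrophages, was the most abundant. It was at 669, 654 and 646 RPKM in DKO libraries, 582, 717, 703 and 664 in Ikzf1 KO, 506, 577, 832 and 1399.7 in Ikzf3 KO and 975, 793, 961 and 918 in Cre only libraries. Every DKO and Ikzf1 KO library lay below every Cre only library, the Ikzf3 KO libraries lay on both sides of them, and no comparison was called. The next most abundant were 2410006H16Rik, Cct6a, Ifi30, Gm33424, Gm35037, Ndufb1-ps, AU020206, Gas5 and AI662270. Cct6a and Ifi30 carry the symbols of protein genes (a chaperonin subunit and a lysosomal thiol reductase) but are annotated as processed transcripts in the table. AI662270 was at 38.6 to 60.6 RPKM in DKO, 37.3 to 46.0 in Ikzf1 KO, 30.1 to 52.6 in Ikzf3 KO and 38.5 to 51.4 in Cre only libraries, overlapping throughout.

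Each difference was tested with limma on log2(RPKM + 0.5) over all 10032 genes with at least 1 RPKM in 3 libraries, and a gene was called at a Benjamini-Hochberg adjusted p below 0.05. A log2 change is given ± SE and understates the change of scarce RNAs. Over the 6 pairwise comparisons, 171 of 387 lncRNAs (44.2%) were called at least once, beside 40.5% of all genes tested. The libraries compared were 3 DKO and 4 of each other group, and all 15 shared 1 estimate of the spread. For fits under other settings or without some libraries, the share of all genes called was not taken. Some called lncRNAs reached the minimum of 1 RPKM in 3 libraries only with the libraries of the group in which they were higher, so that a difference was built into their selection. Against Cre only cells this held for 6 of 24 higher and 5 of 45 lower in DKO, 2 of 7 and 1 of 17 in Ikzf1 KO, and 9 of 36 and 2 of 26 in Ikzf3 KO cells. Values of such RNAs are given below without a test. The largest rises and falls named for a comparison were chosen among calls without overlap between its 2 groups. For these RNAs the lack of overlap was a condition of choice and adds no support.

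**Figure D1:**
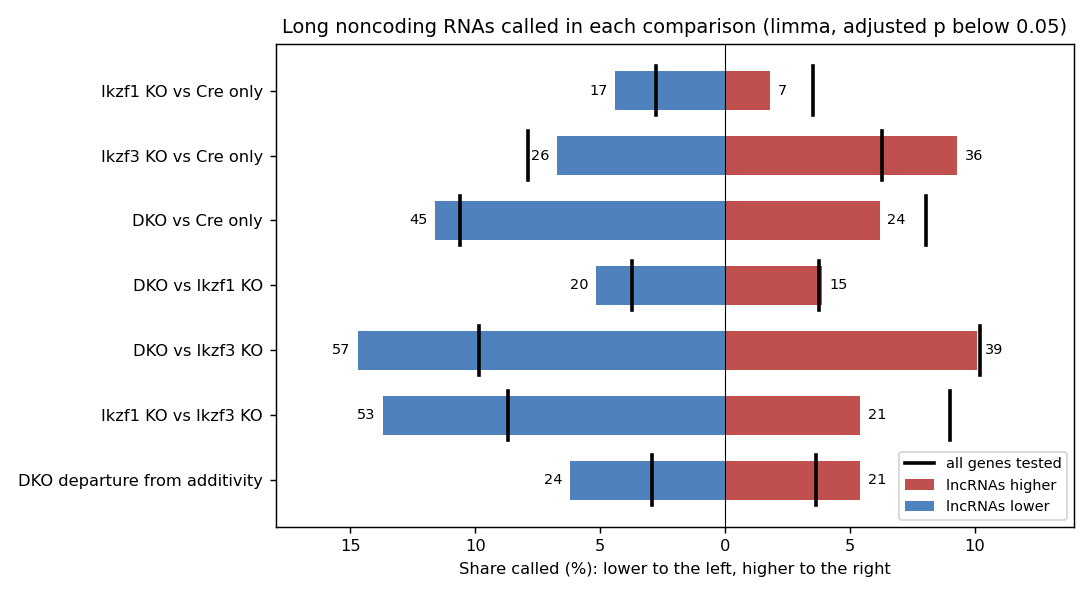
Share of the 387 lncRNAs called in each comparison (bars, percent; lower in blue to the left, higher in red to the right, counts beside the bars), with the share of all 10032 genes tested as black lines. Against Cre only cells, the DKO bars stand at 45 lower and 24 higher, beside 10.6% and 8.06% of all genes.

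In Ikzf1 KO against Cre only cells, 24 lncRNAs were called, 7 higher and 17 lower. That is 6.2% of lncRNAs, beside 6.32% of all genes tested (3.54% higher and 2.78% lower). The count was 15 without S12 and 14 without S18, but 63 with only the compared groups in the fit and 137 with array weights. The falls were led by Gm33424, a lincRNA of 257 exonic bases at chr13:53016202-53018185 (mm10, plus strand). Its nearest coding start, 35129 bases away, is that of Nfil3, a transcription factor needed for NK cell development.

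Gm33424 was at 4.41, 6.42, 5.47 and 1.56 RPKM in Ikzf1 KO libraries, against 64.9, 112, 118 and 24.99 RPKM in Cre only libraries. All 4 Ikzf1 KO libraries lay below all 4 Cre only libraries, of which S19 was the lowest. The log2 change was -3.92 ± 0.66 (adjusted p = 0.00255). Nfil3 itself averaged 62.7 ± 27.1 RPKM in Ikzf1 KO and 101 ± 61.7 RPKM in Cre only cells, a difference that was not called (adjusted p = 0.57). Gm44040, an antisense RNA inside Itpr1 (chr6:108519029-108525687, minus strand), was at 1.66, 3.03, 1.11 and 1.14 RPKM in Ikzf1 KO, against 8.76, 10.97, 7.22 and 3.59 RPKM in Cre only libraries. It fell by 1.85 ± 0.29 on the log2 scale (adjusted p = 0.00161), with no overlap between the groups. Itpr1, which encodes a calcium channel of the endoplasmic reticulum, averaged 1.77 ± 0.139 RPKM in Ikzf1 KO and 1.69 ± 0.342 RPKM in Cre only cells and was not called (adjusted p = 0.91). Over the 15 libraries, the lncRNAs most like Gm33424 were 4930509E16Rik (Pearson r = 0.955), Gm44040 (0.954) and F730043M19Rik (0.904), a description of libraries that share genotypes. 1810006J02Rik, a lincRNA on chromosome 1, fell by 2.39 ± 0.40 (adjusted p = 0.00253), at 1.11, 0.877, 0.997 and 1.65 RPKM in Ikzf1 KO, against 5.81, 4.37, 14.2 and 11.6 RPKM in Cre only libraries. Again no Ikzf1 KO library reached the lowest Cre only library, a condition of the choice of named RNAs.

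Higher in Ikzf1 KO cells was 1700042O10Rik, an antisense RNA that overlaps Ddc on the other strand (chr11:11868123-11885321) and lies 95.2 kb from Ikzf1. It was at 1.90, 2.76, 3.12 and 3.10 RPKM in Ikzf1 KO, against 1.22, 0.759, 0.414 and 0.910 RPKM in Cre only libraries. The groups did not overlap, and the log2 change was 1.30 ± 0.20 (adjusted p = 0.0012). Ddc, the enzyme that makes dopamine and serotonin from their precursors, averaged 1.85 ± 0.245 RPKM in Ikzf1 KO and 1.49 ± 0.354 RPKM in Cre only cells and was not called (adjusted p = 0.51). D5Ertd605e, a lincRNA on chromosome 5, was at 2.41, 2.29, 2.73 and 3.37 RPKM in Ikzf1 KO, against 0.768, 1.006, 0.412 and 0.679 RPKM in Cre only libraries, and rose by 1.41 ± 0.21 (adjusted p = 0.00104). Its groups did not overlap, and it was the lncRNA most like 1700042O10Rik over the 15 libraries (Pearson r = 0.883). Gm31897, which starts within 10 kb of Itgal, the alpha chain of the integrin LFA-1, was at 2.55, 2.48, 2.55 and 2.62 RPKM in Ikzf1 KO, against 0.879, 0.706, 0.858 and 1.06 RPKM in Cre only libraries (log2 change 1.15 ± 0.22, adjusted p = 0.00511). The call of Gm31897 was lost without both S16 and S17. Itgal went the other way, at 107 ± 17.001 RPKM in Ikzf1 KO and 176 ± 18.3 RPKM in Cre only cells (log2 change -0.72 ± 0.17, adjusted p = 0.0193).

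**Figure D2:**
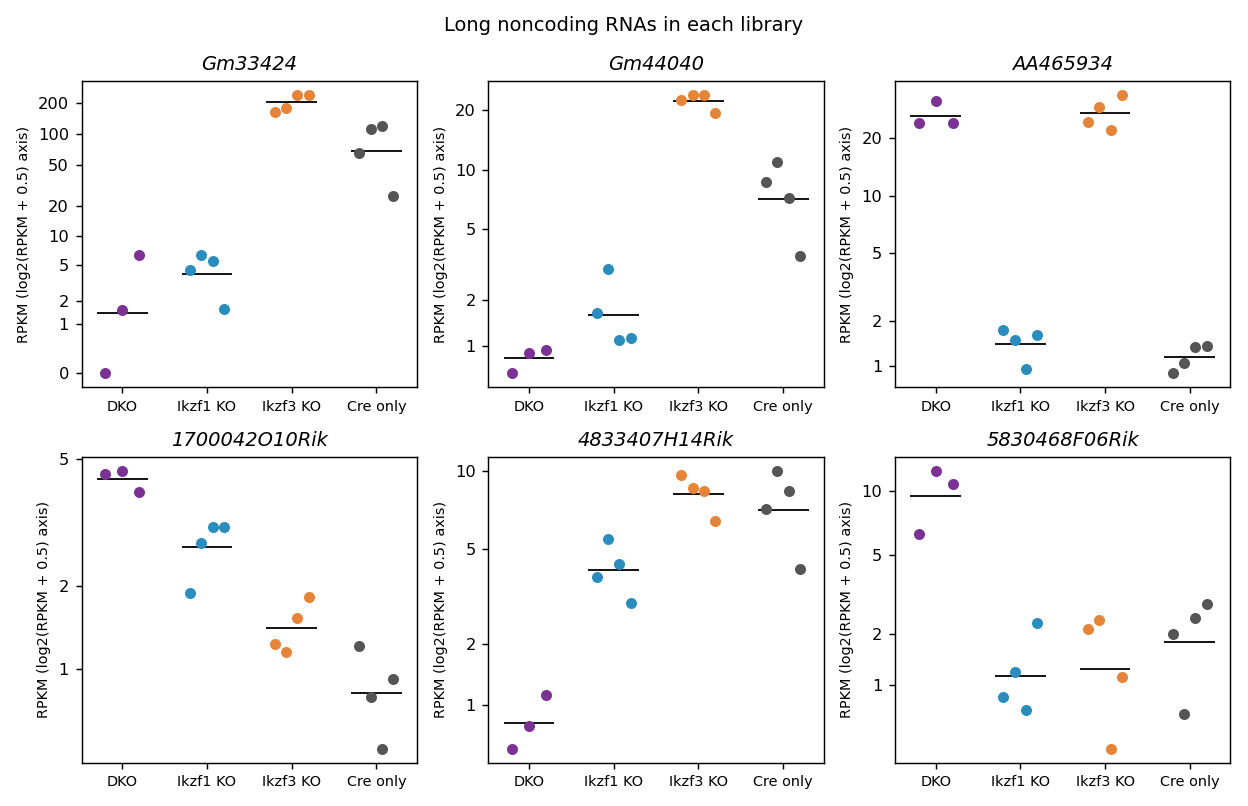
RPKM of 6 lncRNAs in each library, on a log2(RPKM + 0.5) axis; each point is a library and each bar the group mean on that scale. Gm33424 and Gm44040 are lowest in DKO and Ikzf1 KO libraries, and AA465934 lies at 22.1 RPKM or more in all DKO and Ikzf3 KO libraries and below 2 RPKM in the others.

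In Ikzf3 KO against Cre only cells, 62 lncRNAs were called, 36 higher and 26 lower. That is 16% of lncRNAs, beside 14.2% of all genes tested (6.3% higher and 7.88% lower). The count depended on the libraries in the fit: leaving out S1 gave 113 and S2 gave 101, while leaving out S3, S4, S16 or S17 gave 33, 36, 37 or 35. The balance of directions depended on them too, with 16 higher and 17 lower without S3, 16 and 20 without S4, 17 and 18 without S17, and 13 and 26 without both S3 and S4. With only the compared groups in the fit, 22 were called here and 63 in Ikzf1 KO cells. The order of the counts of the single deletions thus turned with the groups fitted. AA465934 had a log2 change of 4.05 ± 0.17 (adjusted p = 5.1e-09). This processed transcript at chr11:83291699-83294632 (plus strand) starts 4973 bases from Slfn14, a gene of the Schlafen family, which is known for roles in lymphocyte growth and in defence against viruses.

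AA465934 was at 24.2, 29.0, 22.1 and 33.3 RPKM in Ikzf3 KO libraries, against 0.875, 1.051, 1.36 and 1.38 RPKM in Cre only libraries. In DKO libraries it was at 23.98, 31.0 and 23.98 RPKM, a log2 change of 4.01 ± 0.19 from Cre only (adjusted p = 7.8e-09) and of -0.04 ± 0.19 from Ikzf3 KO (adjusted p = 0.91). In Ikzf1 KO libraries it was at 1.75, 1.51, 0.942 and 1.63 RPKM. The RNA was high in every library with the Ikzf3 deletion and low in every library without it. Slfn8, a Schlafen gene singled out after its values were seen, averaged 1.44 ± 0.103 RPKM in DKO, 12.6 ± 1.74 in Ikzf1 KO, 0.740 ± 0.354 in Ikzf3 KO and 18.4 ± 1.11 in Cre only cells. Against Cre only cells its log2 change was -3.97 ± 0.17 in Ikzf3 KO (adjusted p = 5.1e-09) and -3.28 ± 0.19 in DKO cells (adjusted p = 5.2e-08), opposite to AA465934. Other Schlafen genes, Slfn14 among them, are not reported here, so Slfn8 does not stand for the family or the locus. AA465934 lies 15.17 Mb from Ikzf3 (chr11:98464610-98546031). The lncRNA most like it over the 15 libraries was Gm12349 (Pearson r = 0.906), a lincRNA also on chromosome 11 (chr11:100291671-100293711). It lies nearer to Ikzf3 than AA465934 does. Whether a place on the targeted chromosome plays a part was not tested.

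Gm12349 was at 1.28, 0.867, 2.66 and 1.88 RPKM in Ikzf3 KO, against 0.105, 0, 0.339 and 0 RPKM in Cre only libraries (log2 difference 1.79 ± 0.28). In DKO libraries it was at 2.35, 1.34 and 0.983 RPKM (log2 difference 1.73 ± 0.30 from Cre only). Both groups lay above the Cre only libraries without overlap, on at most 23 reads a library. It reached 1 RPKM in these 2 groups only, so a difference was built into its selection and no test is given. Gm44040, which fell in Ikzf1 KO cells, rose here: it was at 22.2, 23.6, 23.6 and 19.2 RPKM in Ikzf3 KO, against 8.76, 10.97, 7.22 and 3.59 RPKM in Cre only libraries (log2 change 1.57 ± 0.29, adjusted p = 0.00387). Gm33424 was at 161, 179, 237 and 237 RPKM in Ikzf3 KO libraries, above every Cre only library, with a log2 change of 1.55 ± 0.66 that was not called (adjusted p = 0.12). Platr11, named as a pluripotency-associated transcript, was at 3.25, 3.23, 6.14 and 11.3 RPKM in Ikzf3 KO, against 0.357, 0.701, 1.15 and 0.473 RPKM in Cre only libraries, and rose by 2.34 ± 0.38 (adjusted p = 0.00165). Gm43303 was at 1.38, 1.70, 8.31 and 6.28 RPKM in Ikzf3 KO, against 0.103, 0.508, 0.333 and 0.366 RPKM in Cre only libraries (log2 difference 2.29 ± 0.43). It reached 1 RPKM in Ikzf3 KO libraries only, so a difference was built into its selection and no test is given. In Platr11 and Gm43303, S3 and S4 were the highest Ikzf3 KO libraries, and S1 and S2 also lay above all Cre only libraries.

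Bc1, a short RNA known from neurons, was at 28.1, 46.8, 50.6 and 176 RPKM in Ikzf3 KO, against 14.8, 10.9, 18.1 and 14.6 RPKM in Cre only libraries (log2 change 1.99 ± 0.46, adjusted p = 0.0131). S4 stood apart upward, and the call was lost without both S3 and S4, both S16 and S17 or both S18 and S19, and with only these 2 groups in the fit. Lower in Ikzf3 KO cells was Gm11707, a lincRNA on chromosome 11, at 0.172, 0.697, 0 and 0 RPKM, against 4.09, 5.96, 7.27 and 7.61 RPKM in Cre only libraries (log2 change -3.30 ± 0.29, adjusted p = 2.7e-05). 1810006J02Rik was at 1.57, 0.908, 0.253 and 0.701 RPKM in Ikzf3 KO, below every Cre only library (log2 change -2.75 ± 0.40, adjusted p = 0.000798). Gm11707 was also lower in Ikzf1 KO cells, at 1.39, 1.011, 2.73 and 2.00 RPKM (log2 change -1.59 ± 0.29, adjusted p = 0.00465), a call lost without both S18 and S19 and with a pseudocount of 0.1. Both RNAs were thus lower in each single deletion. Gm20069, antisense to Itpk1, fell by 1.60 ± 0.28 (adjusted p = 0.00253), at 4.47 ± 1.90 RPKM in Ikzf3 KO and 13.5 ± 1.92 RPKM in Cre only cells. 2310043P16Rik, on the other strand of Lsm14a, fell by 1.34 ± 0.19 (adjusted p = 0.000552), at 1.04 ± 0.294 RPKM in Ikzf3 KO and 3.40 ± 0.684 RPKM in Cre only cells.

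**Figure D3:**
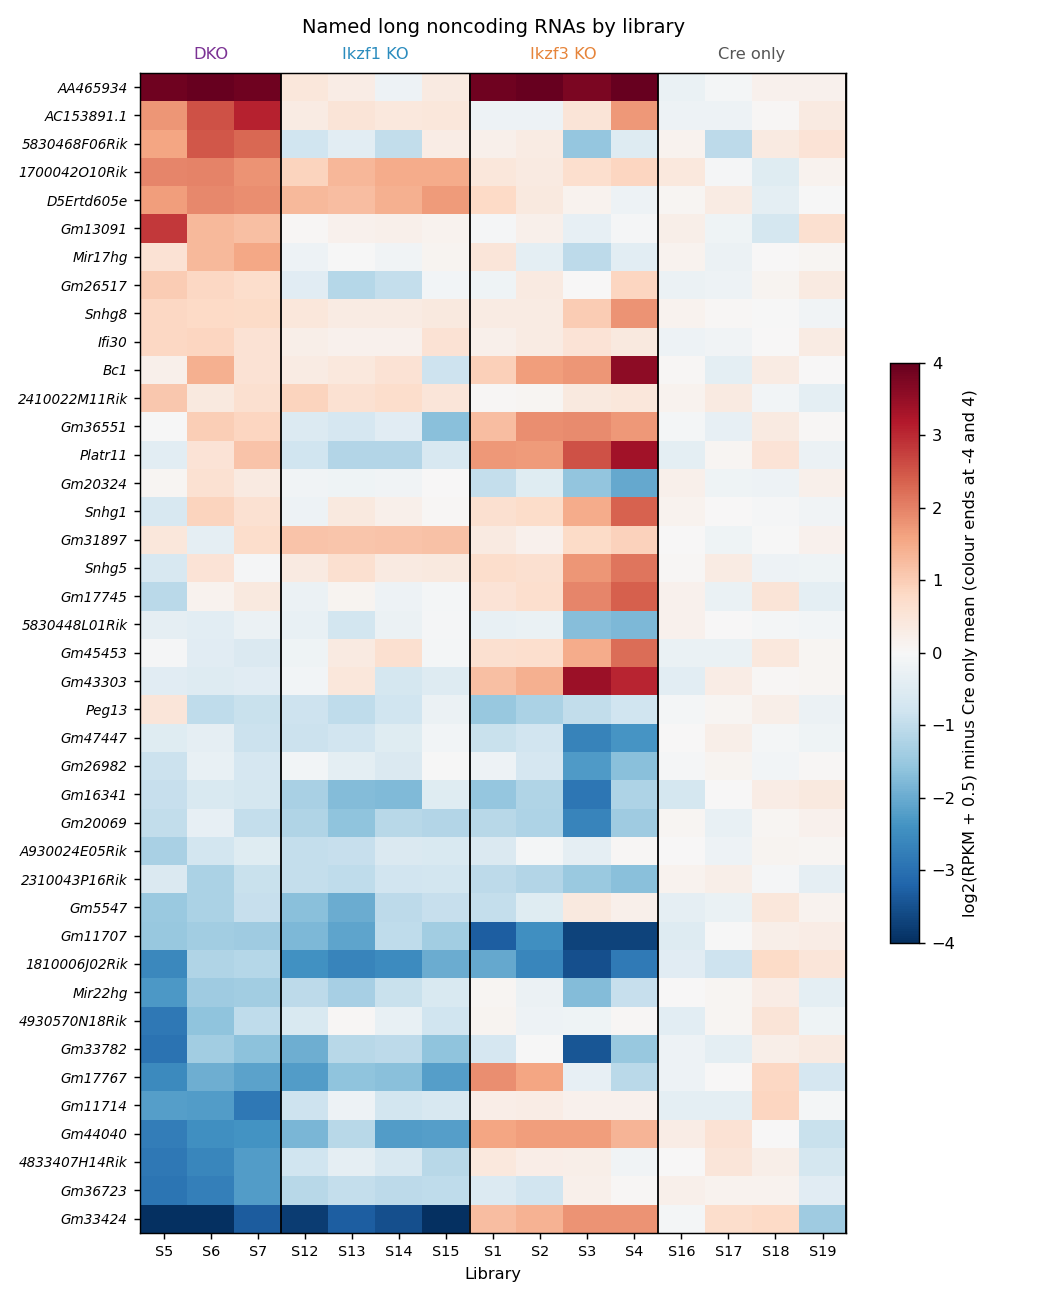
Log2(RPKM + 0.5) of 41 lncRNAs minus the Cre only mean in each of 15 libraries (columns); red is higher and blue lower, and 6 values lie beyond the colour ends at -4 and 4. AA465934 is red in all DKO and Ikzf3 KO libraries, and Gm33424 and Gm44040 are blue in DKO and Ikzf1 KO and red in Ikzf3 KO libraries.

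In DKO against Cre only cells, 69 lncRNAs were called, 24 higher and 45 lower. That is 17.8% of lncRNAs, beside 18.7% of all genes tested (8.06% higher and 10.6% lower). The count was 45 without S18. Gm33424 was again the largest fall, at 0, 1.53 and 6.28 RPKM in DKO libraries, against 64.9, 112, 118 and 24.99 RPKM in Cre only libraries. It fell by 5.17 ± 0.71 on the log2 scale (adjusted p = 0.00016), and S5 had no read of it. Nfil3 was called in the same direction, at 23.9 ± 10.2 RPKM in DKO and 101 ± 61.7 RPKM in Cre only cells (log2 change -1.89 ± 0.50, adjusted p = 0.0174). Gm44040 was at 0.616, 0.9001 and 0.948 RPKM in DKO libraries, below every Cre only library (log2 change -2.54 ± 0.31, adjusted p = 6.7e-05).

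Several lncRNAs were called lower in DKO cells and not in either single deletion. 4833407H14Rik, which lies inside Mirt1 on the other strand (chr19:53460622-53462723), was at 0.542, 0.760 and 1.13 RPKM in DKO, against 7.17, 10.1, 8.45 and 4.16 RPKM in Cre only libraries, and fell by 2.56 ± 0.26 (adjusted p = 1.2e-05). Gm11714, which overlaps Pitpnc1 on the other strand (chr11:107428276-107435686), was at 3.37, 3.30 and 1.99 RPKM in DKO, against 13.3, 13.1, 31.6 and 16.5 RPKM in Cre only libraries, and fell by 2.43 ± 0.26 (adjusted p = 2.2e-05). For both RNAs, the DKO libraries lay below every library of the other 3 groups. Against Cre only cells, 4833407H14Rik had log2 changes of -0.73 ± 0.24 in Ikzf1 KO (adjusted p = 0.095) and 0.19 ± 0.24 in Ikzf3 KO cells (adjusted p = 0.59). Gm11714 had log2 changes of -0.60 ± 0.24 in Ikzf1 KO (adjusted p = 0.18) and 0.23 ± 0.24 in Ikzf3 KO cells (adjusted p = 0.53). Whether the DKO changes exceed the sum of the single ones is tested with the departures from additivity. Gm19557, antisense to Stn1, was at 0.995, 0.621 and 1.12 RPKM in DKO, against 2.63, 2.92, 3.81 and 3.12 RPKM in Cre only libraries (log2 change -1.37 ± 0.18, adjusted p = 0.000131). Stn1, a subunit of the complex that fills in telomere ends, moved the same way, at 10.7 ± 1.07 RPKM in DKO and 16.1 ± 0.768 RPKM in Cre only cells (log2 change -0.57 ± 0.11, adjusted p = 0.0029). 4930570N18Rik fell by 1.83 ± 0.34 (adjusted p = 0.00219), at 0.404, 1.63 and 2.72 RPKM in DKO, against 4.37, 6.35, 8.72 and 5.34 RPKM in Cre only libraries. Its DKO libraries spread widely, and none reached the lowest Cre only library.

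Gm36723, a lincRNA on chromosome 12, was called in both DKO and Ikzf1 KO cells. It was at 2.97, 3.48 and 5.17 RPKM in DKO and 11.9, 13.1, 12.4 and 12.7 in Ikzf1 KO libraries, against 29.7, 28.5, 28.5 and 18.9 RPKM in Cre only libraries. The log2 change was -2.63 ± 0.24 in DKO (adjusted p = 4.1e-06) and -1.03 ± 0.22 in Ikzf1 KO cells (adjusted p = 0.0123, a call lost without both S16 and S17), and Ikzf1 KO libraries lay between the others without overlap.

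Among the lncRNAs higher in DKO cells, AC153891.1 lies on the other strand of Il20ra, a receptor subunit for cytokines of the interleukin 20 family (chr10:19716152-19718704). It was at 1.45, 2.91 and 4.44 RPKM in DKO, against 0, 0, 0.1001 and 0.247 RPKM in Cre only libraries (log2 difference 2.47 ± 0.41). It passed the minimum level only with the DKO libraries, so no test is given. Il20ra averaged 2.76 ± 1.16 RPKM in DKO and 0.198 ± 0.0884 RPKM in Cre only cells (log2 change 2.16 ± 0.35, adjusted p = 0.000631). Il20ra was higher in all 3 DKO libraries than in any Cre only library. For AC153891.1 a difference was built into its selection. 5830468F06Rik, on the other strand of Kbtbd11, was at 6.32, 12.4 and 10.8 RPKM in DKO, against 2.00, 0.616, 2.42 and 2.88 RPKM in Cre only libraries (log2 change 2.12 ± 0.47, adjusted p = 0.00611), a call lost without both S16 and S17. Kbtbd11, which encodes a BTB and kelch repeat protein, averaged 28.8 ± 4.86 RPKM in DKO and 9.03 ± 2.22 RPKM in Cre only cells (log2 change 1.64 ± 0.18, adjusted p = 2.3e-05). 1700042O10Rik was at 4.50, 4.61 and 3.96 RPKM in DKO, above every Cre only library, and rose by 1.91 ± 0.21 (adjusted p = 2.6e-05). Here its coding neighbour was called too: Ddc averaged 3.78 ± 1.18 RPKM in DKO and 1.49 ± 0.354 RPKM in Cre only cells (log2 change 1.09 ± 0.19, adjusted p = 0.00144). D5Ertd605e averaged 3.72 ± 0.385 RPKM in DKO and 0.716 ± 0.245 RPKM in Cre only cells and rose by 1.81 ± 0.22 (adjusted p = 6.8e-05). Gm13091, antisense to Rere, was at 7.01, 2.09 and 1.93 RPKM in DKO, against 0.737, 0.435, 0.158 and 1.17 RPKM in Cre only libraries (log2 difference 1.77 ± 0.36), with S5 the highest. It too passed the minimum level only with the DKO libraries, and no test is given.

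In DKO against Ikzf1 KO cells, 35 lncRNAs were called, 15 higher and 20 lower, or 9.04% beside 7.48% of all genes tested (3.76% higher and 3.72% lower). Leaving out S6 or S14 gave 17 calls, S12 gave 20 and S13 gave 21. The split was 26 higher and 25 lower without S4, and 18 and 13 without S5. AA465934 had a log2 change of 3.79 ± 0.19 (adjusted p = 3.5e-08). 5830468F06Rik was at 6.32, 12.4 and 10.8 RPKM in DKO, against 0.821, 1.20, 0.668 and 2.29 RPKM in Ikzf1 KO libraries (log2 change 2.60 ± 0.47, adjusted p = 0.0031). Gm26517, on the other strand of Heatr5a, was at 3.95, 3.39 and 3.03 RPKM in DKO, against 1.11, 0.493, 0.629 and 1.52 RPKM in Ikzf1 KO libraries (log2 change 1.51 ± 0.27, adjusted p = 0.00314). None of these 3 RNAs overlapped between the groups. Lower in DKO than in Ikzf1 KO cells were 4833407H14Rik (log2 change -1.84 ± 0.26, adjusted p = 0.000533), Gm11714 (-1.83 ± 0.26, adjusted p = 0.000564) and Gm36723 (-1.60 ± 0.24, adjusted p = 0.000705). Gm33424 and Gm44040 were not called here, with log2 changes of -1.25 ± 0.71 (adjusted p = 0.34) and -0.69 ± 0.31 (adjusted p = 0.21).

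In DKO against Ikzf3 KO cells, 96 lncRNAs were called, 39 higher and 57 lower, or 24.8% beside 20.1% of all genes tested (10.2% higher and 9.85% lower). The split turned to 52 higher and 46 lower without S4, and to 52 and 50 without both S3 and S4. Gm33424 fell by 6.73 ± 0.71 (adjusted p = 1.7e-05), Gm44040 by 4.11 ± 0.31 (adjusted p = 8.6e-07) and 4930509E16Rik, which starts within 10 kb of Rfx7, by 2.32 ± 0.23 (adjusted p = 1e-05). 4930509E16Rik was at 0.225, 0.453 and 0.434 RPKM in DKO, against 3.04, 3.44, 4.34 and 4.705 RPKM in Ikzf3 KO libraries. For all 3 RNAs, the mean was lowest in DKO and highest in Ikzf3 KO cells among the 4 genotypes. Gm20324, antisense to Tcf20, rose by 1.62 ± 0.28 (adjusted p = 0.00111), at 4.14 ± 0.851 RPKM in DKO and 1.12 ± 0.737 RPKM in Ikzf3 KO cells.

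In Ikzf1 KO against Ikzf3 KO cells, 74 lncRNAs were called, 21 higher and 53 lower, or 19.1% beside 17.7% of all genes tested (9.01% higher and 8.68% lower). Leaving out S1 gave 139 calls and S2 gave 129, S3, S12 or S15 gave 37 each, S14 gave 36, S4 gave 41 and S13 gave 47. The log2 change was -5.48 ± 0.66 for Gm33424 (adjusted p = 8.7e-05), -3.82 ± 0.17 for AA465934 (adjusted p = 1e-08) and -3.41 ± 0.29 for Gm44040 (adjusted p = 5e-06). Platr11 was at 0.146, 0, 0 and 0.229 RPKM in Ikzf1 KO libraries, against 3.25, 3.23, 6.14 and 11.3 RPKM in Ikzf3 KO libraries (log2 change -3.30 ± 0.38, adjusted p = 6e-05). Gm36551, on the other strand of Pilrb1, an activating receptor, was at 1.89, 1.65, 2.01 and 0.593 RPKM in Ikzf1 KO, against 7.58, 12.1, 12.4 and 10.99 RPKM in Ikzf3 KO libraries (log2 change -2.52 ± 0.28, adjusted p = 4.8e-05). All of these were lower in every Ikzf1 KO library than in any Ikzf3 KO library. Pilrb1 averaged 1.81 ± 0.569 RPKM in Ikzf1 KO and 6.49 ± 3.63 RPKM in Ikzf3 KO cells (log2 change -1.47 ± 0.35, adjusted p = 0.0127).

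The log2 values also allow a test of whether the double deletion equals the sum of the single ones. The departure was the DKO change from Cre only minus the Ikzf1 KO and Ikzf3 KO changes, so that 0 means additivity on the log2 scale. By this test 45 lncRNAs departed, 21 above and 24 below the sum, which is 11.6% of lncRNAs, beside 6.55% of all genes tested (3.63% above and 2.92% below). The count was 28 without S13 and 27 without S14, with no share of all genes taken for these fits. The split turned to 27 above and 20 below without S4, and to 15 and 13 without S13. 1810006J02Rik fell in both single deletions, but was at 0.927, 3.26 and 3.40 RPKM in DKO libraries, of which S6 and S7 lay above every single deletion library. Its departure was 3.51 ± 0.59 (adjusted p = 0.00356). Gm11707 departed by 3.44 ± 0.43 (adjusted p = 0.00063), at 1.78, 2.00 and 1.98 RPKM in DKO, 1.39, 1.011, 2.73 and 2.00 in Ikzf1 KO and 0.172, 0.697, 0 and 0 RPKM in Ikzf3 KO libraries. Gm20069 departed by 2.12 ± 0.41 (adjusted p = 0.00703), at 7.97 ± 2.30 RPKM in DKO, 5.28 ± 0.812 in Ikzf1 KO and 4.47 ± 1.90 RPKM in Ikzf3 KO cells. In these 3 the DKO mean was above that of either single deletion and below that of Cre only cells. For 1810006J02Rik and Gm11707, the summed single falls reached below the value that 0 RPKM takes on this scale. A DKO library without any read would still have departed upward, so the direction of both departures was fixed in advance.

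Of the 24 downward departures, 10 were called in every alternative, among them those of Gm44040 (-2.26 ± 0.43, adjusted p = 0.00642), Gm11714 (-2.06 ± 0.36, adjusted p = 0.00446), 4833407H14Rik (-2.03 ± 0.36, adjusted p = 0.00456) and 5033406O09Rik (-1.74 ± 0.32, adjusted p = 0.0062). 5033406O09Rik, a lincRNA on chromosome 12, was at 1.26, 1.14 and 1.60 RPKM in DKO, 3.22, 3.46, 3.74 and 2.95 in Ikzf1 KO, 3.86, 4.21, 2.02 and 2.82 in Ikzf3 KO and 2.22, 2.51, 1.60 and 1.08 RPKM in Cre only libraries. It passed no test against Cre only cells (adjusted p = 0.38 in DKO, adjusted p = 0.059 in Ikzf1 KO and adjusted p = 0.057 in Ikzf3 KO cells). Gm20743, which overlaps Xcl1 on the other strand and was chosen after its values were seen, was at 1.38, 1.25 and 1.41 RPKM in DKO, 0.299, 0.416, 0.434 and 0.522 in Ikzf1 KO, 0.283, 0.300, 0.0381 and 0.277 in Ikzf3 KO and 0.962, 0.668, 0.570 and 0.733 RPKM in Cre only libraries. All DKO libraries lay above all Cre only libraries and all single deletion libraries below them. It reached 1 RPKM in the DKO libraries only, so a higher DKO level was built into its selection and no test is given. Xcl1, which encodes the chemokine lymphotactin, averaged 1112 ± 434 RPKM in DKO, 743 ± 186 in Ikzf1 KO, 231 ± 168 in Ikzf3 KO and 812 ± 422 RPKM in Cre only cells. Its departure was 2.60 ± 0.85 (adjusted p = 0.089).

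Host genes of small nucleolar RNAs (snoRNAs) hold in their introns the snoRNAs that guide the modification of ribosomal RNA. Of 26 names listed, 10 were members. In Ikzf3 KO against Cre only cells 4 rose, 0 fell and 6 did not pass, with a median log2 change of 0.86, beside -0.02 for all genes tested. Of all genes tested, 6.3% were called higher and 7.88% lower in that comparison. In Ikzf1 KO cells 0 passed (median 0.06), and in DKO cells 1 rose, Snhg8 (median -0.02). The shares of all genes called there were 6.32% and 18.7%. Snhg5 was at 10.8, 10.2, 22.9 and 30.2 RPKM in Ikzf3 KO, against 6.60, 8.13, 5.49 and 5.69 RPKM in Cre only libraries (log2 change 1.31 ± 0.32, adjusted p = 0.0154). Snhg1 was at 11.4, 12.1, 20.7 and 38.5 RPKM in Ikzf3 KO, against 7.97, 7.28, 6.90 and 6.39 RPKM in Cre only libraries (log2 change 1.30 ± 0.36, adjusted p = 0.0273). Snhg6 was at 24.02, 24.6, 36.8 and 76.3 RPKM in Ikzf3 KO, against 19.5, 19.9, 13.6 and 12.7 RPKM in Cre only libraries (log2 change 1.14 ± 0.34, adjusted p = 0.0382). S3 and S4 were the highest libraries of all 3 RNAs, and the groups did not overlap. Snhg8 was at 31.6, 31.1, 50.9 and 87.2 RPKM in Ikzf3 KO and 44.1, 43.8 and 42.8 in DKO, against 27.2, 25.6, 24.4 and 22.2 RPKM in Cre only libraries (log2 changes 0.87 ± 0.24, adjusted p = 0.0302, and 0.80 ± 0.26, adjusted p = 0.0465).

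Without both S3 and S4, Snhg1, Snhg5 and Snhg6 were no longer called in Ikzf3 KO cells. Snhg5 was also lost without both S16 and S17 or both S18 and S19. Snhg1 was also lost without any 1 of S3, S4, S16, S17, S18 and S19 (adjusted p = 0.051 to 0.073), Snhg6 without any 1 of S3, S4, S12, S13, S14, S16, S17, S18 and S19 (0.052 to 0.096), and Snhg8 without any 1 of S3, S16, S17, S18 and S19 (0.053 to 0.073). In DKO cells Snhg8 was lost without any 1 of S5, S6, S7, S12, S13, S14, S15, S16, S17, S18 and S19 (0.061 to 0.13). Gas5, known to accumulate on growth arrest, was at 35.9, 35.1, 81.6 and 118 RPKM in Ikzf3 KO, against 34.2, 32.0, 36.9 and 28.9 RPKM in Cre only libraries, and was not called (adjusted p = 0.072). 2410006H16Rik was at 118, 169, 559 and 1079 RPKM in Ikzf3 KO, against 178, 193, 221 and 133 RPKM in Cre only libraries (adjusted p = 0.23). For both, S3 and S4 lay above every Cre only library while S1 and S2 did not both do so. Snhg17 went the other way within the group, at 2.57, 2.41, 0.732 and 0.853 RPKM in Ikzf3 KO libraries, S3 and S4 being the lowest. Over the 15 libraries Snhg1 was most like Snhg6 (Pearson r = 0.969), 1110038B12Rik (0.961) and Gm17745 (0.931).

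**Figure D4:**
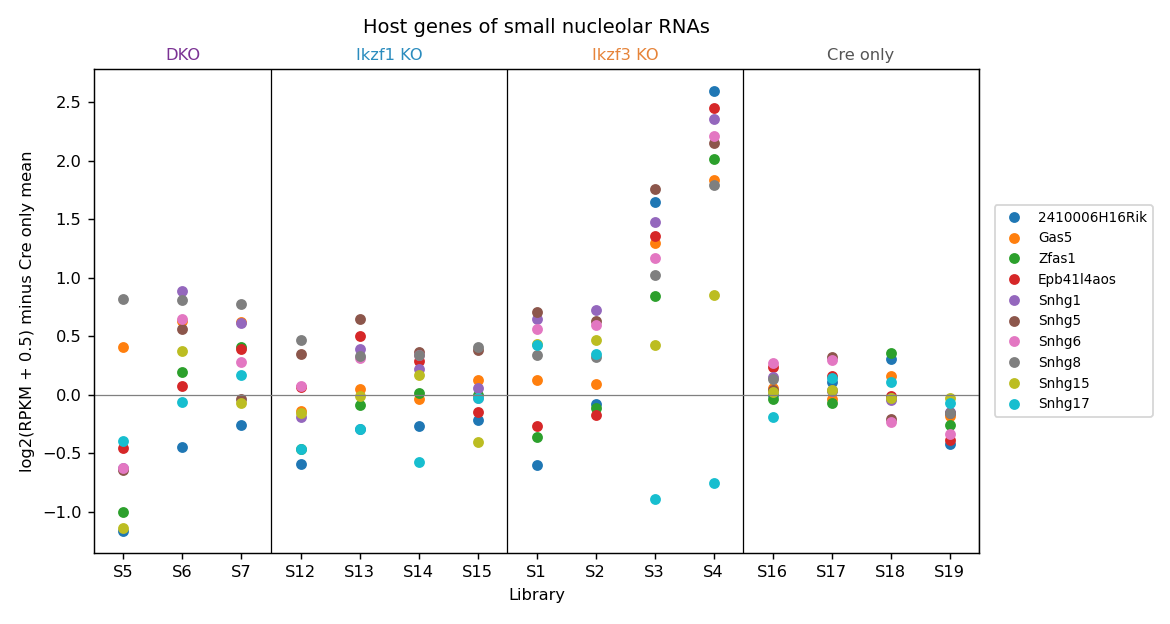
Log2(RPKM + 0.5) of 10 snoRNA host genes minus the Cre only mean (vertical axis) in each library (horizontal axis), coloured by gene. In S4, 9 of the 10 genes lie above the Cre only mean, and Snhg17 lies below it in S3 and S4.

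MicroRNA host genes numbered 4 of 10 listed: Mir17hg, Mir22hg, Mir142hg and Dleu2. The mature microRNAs were not measured, and their sequences are printed to show what a host gene carries and which of them share a seed, the bases 2 to 8 that pair with targets (capitals; RefSeq, GRCm38.p6). Mir17hg holds a cluster known to promote lymphocyte growth, in which miR-17 and miR-20a share a seed and miR-19a and miR-19b share another. Mir22hg holds miR-22, and Mir142hg holds miR-142, which is abundant in blood cells.
mmu-miR-17-5p: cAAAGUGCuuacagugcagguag
mmu-miR-20a-5p: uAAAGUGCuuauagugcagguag
mmu-miR-18a-5p: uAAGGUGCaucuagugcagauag
mmu-miR-19a-3p: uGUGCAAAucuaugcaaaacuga
mmu-miR-19b-3p: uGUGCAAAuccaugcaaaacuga
mmu-miR-92a-3p: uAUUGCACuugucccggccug
mmu-miR-22-3p: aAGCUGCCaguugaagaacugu
mmu-miR-142a-3p: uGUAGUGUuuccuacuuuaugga

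In DKO against Cre only cells 1 of the 4 microRNA hosts rose, 1 fell and 2 did not pass (median log2 change 0.23). In Ikzf3 KO cells 1 fell (median -0.47), and in Ikzf1 KO cells 0 passed (median -0.19). Of all genes tested, 18.7% were called in DKO, 14.2% in Ikzf3 KO and 6.32% in Ikzf1 KO cells. With 4 members, the counts give no reading of the hosts as a set. The host that rose, Mir17hg, passed the minimum level only with the DKO libraries, so its test is not given. Mir17hg was at 1.20, 2.25 and 2.78 RPKM in DKO, 0.481 to 0.717 in Ikzf1 KO, 0.0449 to 1.07 in Ikzf3 KO and 0.461 to 0.743 RPKM in Cre only libraries. All DKO libraries lay above all others, a separation that the rule on the minimum level favoured. Its log2 difference was 1.14 ± 0.29 between DKO and Cre only cells and 1.48 ± 0.29 between DKO and Ikzf3 KO cells. Mir22hg went the other way, at 0.349, 1.045 and 1.07 RPKM in DKO, against 3.63, 3.85, 4.59 and 2.67 RPKM in Cre only libraries (log2 change -1.70 ± 0.36, adjusted p = 0.00496). Tlcd2, which overlaps it on the same strand, averaged 2.07 ± 1.19 RPKM in DKO and 0.388 ± 0.0631 RPKM in Cre only cells (log2 difference 1.41 ± 0.38, without a test, since it passed the minimum level only with the DKO libraries). Mir142hg was at 16.9, 11.9, 14.5 and 15.9 RPKM in Ikzf3 KO, against 20.1, 24.3, 25.1 and 20.7 RPKM in Cre only libraries, and fell by 0.60 ± 0.19 (adjusted p = 0.0477). That call was lost without any 1 of S2, S3, S4, S6, S7, S12, S13, S16, S17, S18 and S19 (0.053 to 0.12). Dleu2, the host of miR-15a and miR-16-1, was called in no comparison.

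Nuclear lncRNAs numbered 4 of 14 listed: Malat1, Tug1, 2900097C17Rik and Firre, an X-linked RNA that takes part in nuclear contacts. In DKO against Cre only cells 1 rose, 0 fell and 3 did not pass (median log2 change 0.05). In the single deletions 0 of 4 passed (medians -0.12 in Ikzf1 KO and -0.07 in Ikzf3 KO cells). Of all genes tested, 18.7% were called in DKO, 6.32% in Ikzf1 KO and 14.2% in Ikzf3 KO cells, and 4 members give no reading of the set. Firre was at 1.19, 0.863 and 1.10 RPKM in DKO, against 0.386, 0.461, 0.306 and 0.208 RPKM in Cre only libraries (log2 difference 0.89 ± 0.21). It passed the minimum level only with the DKO libraries, so no test is given, and the sex of the mice was not compared. Malat1 averaged 10.99 ± 1.56 RPKM in DKO, 12.9 ± 3.79 in Ikzf1 KO, 17.3 ± 4.51 in Ikzf3 KO and 14.4 ± 3.77 in Cre only cells and was called in no comparison. Of 10 rows listed as related to ribosomal RNA or repeats, 2 were members. Gm26917 was at 7.08, 9.27 and 9.80 RPKM in DKO, against 20.5, 22.1, 13.4 and 13.5 RPKM in Cre only libraries (log2 change -0.93 ± 0.30, adjusted p = 0.0444), a call lost without any 1 of S5, S6, S7, S12, S13, S14, S16, S17 and S18 (0.051 to 0.12). The DKO libraries lay below all Cre only libraries. Gm15564 departed from additivity by -1.17 ± 0.30 (adjusted p = 0.0326), lost without any 1 of S5, S6, S13, S14, S15, S16, S17 and S19 (0.054 to 0.068).

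Among the lncRNAs with a described role in immune cells or growth control, 6 of 16 listed were members. Against Cre only cells, 1 fell and 0 rose in Ikzf1 KO (median log2 change -0.21) and 1 fell and 0 rose in DKO cells (median -0.20). In Ikzf3 KO cells 1 fell and 1 rose (median 0.15). Of all genes tested, 6.32% were called in Ikzf1 KO, 18.7% in DKO and 14.2% in Ikzf3 KO cells, and 6 members give no reading of the set. Mirt1, an RNA first described in heart tissue after infarction, averaged 0.198 ± 0.112 RPKM in DKO, 0.186 ± 0.0378 in Ikzf1 KO, 1.29 ± 0.431 in Ikzf3 KO and 0.884 ± 0.482 in Cre only cells. Its log2 change from Cre only was -0.95 ± 0.23 in Ikzf1 KO cells (adjusted p = 0.0251, and 0.056 to 0.079 without any 1 of S12, S13, S14, S15 and S18). In DKO cells it was -0.94 ± 0.25 (adjusted p = 0.0188, and 0.053 to 0.062 without any 1 of S5 and S18). Mirt1 and 4833407H14Rik overlap on opposite strands, and both were low in DKO cells. Peg13, an imprinted RNA within Trappc9, was at 3.06, 3.74, 4.74 and 5.42 RPKM in Ikzf3 KO, against 9.25, 10.4, 11.5 and 8.25 RPKM in Cre only libraries, and fell by 1.14 ± 0.29 (adjusted p = 0.0182, and 0.055 without S18). Lockd, which starts near Cdkn1b, a brake on the cell cycle, was at 3.65, 4.78, 9.94 and 16.9 RPKM in Ikzf3 KO, against 2.93, 1.80, 3.85 and 4.44 RPKM in Cre only libraries (adjusted p = 0.0476, and 0.053 to 0.13 without any 1 of S3, S4, S5, S6, S7, S12, S13, S14, S15, S16, S17 and S18). The groups overlapped for Lockd, S3 and S4 being the highest. Pvt1, next to the growth regulator Myc, was at 1.31, 1.09, 4.08 and 5.83 RPKM in Ikzf3 KO libraries and was not called (adjusted p = 0.097). Gm14005, known as Morrbid, was called in no comparison.

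Called lncRNAs were set beside the coding gene that overlaps them or starts within 10 kb. In DKO against Cre only cells, 36 called lncRNAs had a tested neighbour, of which 9 were called in the same direction and 2 in the other, together 30.6%. Of the neighbours of 186 lncRNAs that were not called, 40 (21.5%) were called. In Ikzf3 KO against Cre only cells, 34 called lncRNAs had 14 neighbours called the same way and 1 the other way (44.1%; Gimap5 is counted for 2 overlapping lncRNAs, so 13 distinct genes went the same way), beside 33 of 188 (17.6%) for lncRNAs that were not called. In Ikzf1 KO against Cre only cells, 12 called lncRNAs had 0 neighbours called the same way and 1, Itgal beside Gm31897, the other way (8.33%), beside 9 of 210 (4.29%). Among the lncRNAs with a neighbour called the same way, AC153891.1, Gm10366 and Gm13031 passed the minimum level only with the higher group in the DKO comparison. So did Gm45453 and 2010016I18Rik in the Ikzf3 KO comparison. A difference was built into the selection of these RNAs, and the counts include them. These shares are a description without a test. Reads of overlapping genes may be counted for either, since the strand setting of the counting is not given in the sources used here.

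4833403J16Rik, which was chosen after its values were seen, and Gm44226 overlap each other on opposite strands and start within 10 kb of Gimap5, a GTPase needed for lymphocyte survival. 4833403J16Rik was at 2.61, 3.42, 1.62 and 2.24 RPKM in Ikzf3 KO, against 4.90, 4.28, 4.47 and 4.15 RPKM in Cre only libraries (log2 change -0.77 ± 0.18, adjusted p = 0.0152). That call was lost in 5 of 26 alternatives (adjusted p up to 0.095), among them those without both S3 and S4, both S16 and S17 or both S18 and S19. Gimap5 averaged 17.3 ± 2.97 RPKM in Ikzf3 KO and 29.3 ± 2.87 RPKM in Cre only cells (log2 change -0.75 ± 0.13, adjusted p = 0.00253). AI504432, which starts within 10 kb of Kcna3, a voltage-gated potassium channel of lymphocytes, averaged 2.97 ± 1.019 RPKM in Ikzf3 KO and 5.20 ± 0.375 RPKM in Cre only cells (log2 change -0.76 ± 0.19, adjusted p = 0.0171), a call lost without both S16 and S17 or both S18 and S19. Kcna3 averaged 3.69 ± 1.78 RPKM in Ikzf3 KO and 6.65 ± 1.59 RPKM in Cre only cells (log2 change -0.84 ± 0.26, adjusted p = 0.0447). In both places the lncRNA and the coding gene were lower in Ikzf3 KO cells.

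**Figure D5:**
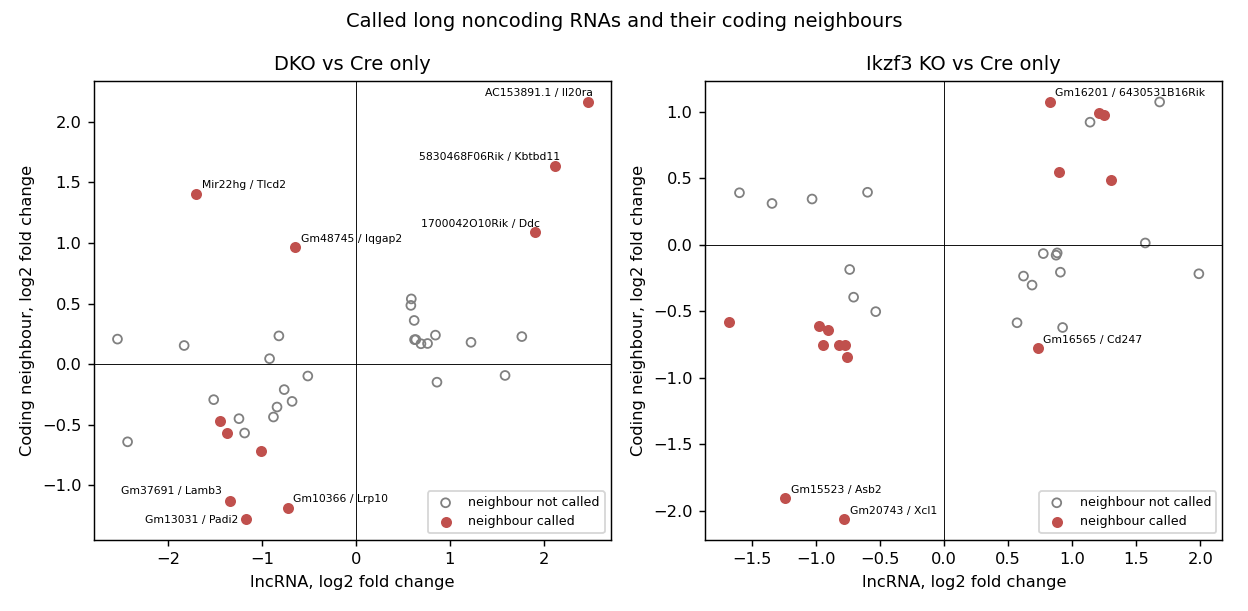
Log2 fold change of called lncRNAs (horizontal axis) and of their coding neighbours (vertical axis), for DKO (left, 36 pairs) and Ikzf3 KO (right, 34 pairs) against Cre only cells; filled points are neighbours that were called too. Of the filled points, 9 of 11 on the left and 14 of 15 on the right lie in the quadrants of equal direction. Among these, AC153891.1, Gm10366 and Gm13031 (left) and Gm45453 and 2010016I18Rik (right) passed the minimum level only with their higher group.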

How the data were processed

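RNA of sorted and cultured splenic NK cells was sequenced by the authors from stranded, 75 bp single-end libraries, per the labels' protocols. The mm10 build and the tools STAR, featureCounts and limma (3.34.9) are listed, without roles, in the submitters' processing notes, and the strand setting of the counting is not given in the sources used here. The deposited values are RPKM, 1 column a library, as computed by the authors.

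Depth was recovered from RPKM steps and GENCODE M21 exon lengths (tolerance 0.02 of a read). Genes with at least 1 RPKM in 3 libraries (10032) were tested on log2(RPKM + 0.5) with limma 3.58.1 (R 4.3.3), with 1 mean a group, a trended and robust prior, 11 residual degrees of freedom and Benjamini-Hochberg adjustment over all genes. The fit was also run on simulated data with the same spread in every group. That run does not cover the unequal spreads of these groups. The p-values rest on 1 spread a gene, pooled over the groups. Groups differed in spread, with a median SD of 0.474 in Ikzf3 KO and 0.207 in Ikzf1 KO libraries. A p-value therefore does not follow the spread of the compared groups alone. Python 3.11.15 made the summaries and matplotlib 3.10.9 the figures.

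Named lncRNAs were the 10 most abundant, up to 10 rises and 10 falls a comparison called without overlap and with a mean of at least 2 RPKM in the higher group, the 5 largest departures a direction, the list members, and the RNAs most like a described one. Gm20743, 4833403J16Rik and Slfn8 were chosen after their values were seen. Among these the text prefers calls kept under every alternative, a choice also made after values were seen. The lncRNAs and lists were chosen with earlier results of these data known. The alternatives changed the pseudocount, filter, scaling, library weights, groups fitted and libraries left out. For coding neighbours the alternatives are not reported here.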

Additional observations from a re-analysis of the deposited data

Results flagged for a closer look

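In 12 of 258 groups of 4 libraries tested, the highest or lowest library lay far from the rest by Dixon's criterion, where chance gives about 1 group in 20. In the Ikzf3 KO library S4 this was Bc1 at 176 RPKM (the others 28.1 to 50.6), Dleu2 at 1.61 RPKM (the others 0.520 to 0.687), Gm44135 at 43.4 RPKM (the others 16.8 to 19.9) and Snhg15 at 14.6 RPKM (the others 10.8 to 11.1). In the Ikzf3 KO library S3 this was Gm20743 at 0.0381 RPKM (the others 0.277 to 0.300). In the Ikzf1 KO library S13 this was 1700097N02Rik at 0.586 RPKM (the others 0.268 to 0.317), Pvt1 at 1.33 RPKM (the others 1.11 to 1.13) and Snhg5 at 10.4 RPKM (the others 8.32 to 8.50). In the Ikzf1 KO library S15 this was Firre at 0.922 RPKM (the others 0.707 to 0.741), Gm6277 at 2.13 RPKM (the others 3.66 to 3.85) and Ifi30 at 94.6 RPKM (the others 71.3 to 74.7). In the Cre only library S19 this was Gm36723 at 18.9 RPKM (the others 28.5 to 29.7).

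The effect of a second deletion differed from that of the same deletion alone for 23 of the lncRNAs named, as tested by the departure of the DKO from the sum of the single deletions (log2, limma). Over all lncRNAs 11.6% departed, beside 6.55% of all genes tested, and the named ones were chosen in part for this departure. Of these 23 departures, 13 were lost in at least 1 alternative. The DKO lay above the sum for 1810006J02Rik (3.51), Gm11707 (3.44), 5830468F06Rik (2.98), Gm16341 (2.30), Gm20069 (2.12), Gm20743 (1.79), Gm20324 (1.73), Mir17hg (1.55), AI504432 (1.44), 4833403J16Rik (1.42) and 2310043P16Rik (1.30). For 1810006J02Rik and Gm11707 this direction was fixed in advance, because the sum lay below the log2 value of an RNA without reads. The DKO lay below the sum for Gm43303 (-2.53), Gm44040 (-2.26), Gm19590 (-2.22), Gm11714 (-2.06), 4833407H14Rik (-2.03), Snhg5 (-1.79), Gm45453 (-1.79), 5033406O09Rik (-1.74), Gm31897 (-1.45), 4930509E16Rik (-1.44), Gm36723 (-1.33) and Gm15564 (-1.17). Those lost when 1 library was left out were Mir17hg (by 9 libraries), Snhg5 (10), Gm19590, Gm45453 and Gm15564 (8 each), Gm43303 (6), Gm36723 (4) and Gm16341 (3). Those of 5830468F06Rik, Gm20324, 2310043P16Rik, Gm31897 and 4930509E16Rik were lost in 1 other alternative each. Gm20743 reached 1 RPKM in DKO libraries only and Gm43303 in Ikzf3 KO libraries only. Mir17hg passed the minimum level only with the DKO libraries, and Gm45453 only with the Ikzf3 KO libraries. A difference was thus built into the selection of these RNAs, and their departures are listed without weight as tests.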

How the results depend on the processing

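The counts of called lncRNAs depended on the libraries fitted more than on the pseudocount or scaling, which moved none of them by over 1.5 times. Leaving out 1 library at a time gave 14 to 31 calls for Ikzf1 KO against Cre only (24 with all libraries), 33 to 113 for Ikzf3 KO against Cre only (62), 45 to 82 for DKO against Cre only (69), 17 to 51 for DKO against Ikzf1 KO (35), 74 to 135 for DKO against Ikzf3 KO (96), 36 to 139 for Ikzf1 KO against Ikzf3 KO (74) and 27 to 57 departures from additivity (45). The other counts that moved by over 1.5 times are given in that order of comparisons. With a minimum of 2 RPKM, which tests 214 lncRNAs, there were 38 calls for Ikzf3 KO and 42 for DKO against Cre only, 19 and 55 for DKO against Ikzf1 KO and Ikzf3 KO, 48 for Ikzf1 KO against Ikzf3 KO and 27 departures. Array weights gave 137 for Ikzf1 KO against Cre only, 73 for DKO against Ikzf1 KO, 117 for Ikzf1 KO against Ikzf3 KO and 76 departures. With only the compared groups in the fit the counts were 63 for Ikzf1 KO and 22 for Ikzf3 KO against Cre only, 75 and 41 for DKO against Ikzf1 KO and Ikzf3 KO, and 47 for Ikzf1 KO against Ikzf3 KO. Without S3 and S4 they were 58, 39 and 118 for Ikzf1 KO, Ikzf3 KO and DKO against Cre only, 80 for DKO against Ikzf1 KO and 40 for Ikzf1 KO against Ikzf3 KO. Without S16 and S17 they were 26 for Ikzf3 KO and 35 for DKO against Cre only, and 28 departures, and without S18 and S19 they were 13 for Ikzf1 KO and 34 for Ikzf3 KO against Cre only. With the set S5, S15, S18 and S19, taken from earlier results on these data, as a term, they were 69 for Ikzf1 KO and 131 for DKO against Cre only and 85 for DKO against Ikzf1 KO. Without S1 and S2, an alternative chosen after seeing the data, they were 45, 204 and 106 for Ikzf1 KO, Ikzf3 KO and DKO against Cre only, 69 and 217 for DKO against Ikzf1 KO and Ikzf3 KO, 221 for Ikzf1 KO against Ikzf3 KO and 154 departures. The share of all genes called was not taken under the alternatives. Whether these shifts are particular to lncRNAs was therefore not tested, nor was their cause. Of 203 calls of named lncRNAs, 85 were kept in every alternative run, 118 were lost in at least 1 and 0 changed sign. No paired analysis was possible because the columns carry no replicate numbers. Scarce lncRNAs, 34 of them under 10 reads a library, limit what could be called.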
